A study of Bos taurus with 7 samples.

Results

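Rumen epithelium was taken from 7 Holstein calves, and the total RNA of each calf was hybridised to its own single-colour Agilent array. A group given forage (HAY, calves 9, 10 and 13) was compared with a group given none (CON, calves 8, 11, 12 and 14). The design text gives the time as 3 weeks after weaning. The sources used here state no age, further diet or genotype for either group. The genes described come from a list of 30 symbols: 18 for enzymes of glycolysis and lactate formation and 12 for genes of the response to low oxygen. Every array probe whose gene name equals one of these symbols was taken, which gave 35 of 15008 probes for 28 of the 30 symbols. HK2 and PKM2 matched no probe by name. The glycolytic enzymes held 23 probes for 16 genes, because GAPDH alone had 8, and the hypoxia response genes had 12 probes for 12 genes.

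Glycolysis splits glucose into pyruvate in the cytosol, with a small yield of ATP, and lactate dehydrogenase turns pyruvate into lactate when it is not burnt in mitochondria. The hypoxia-inducible factor (HIF) is a transcription factor whose alpha subunit is destroyed while oxygen is plentiful and kept when oxygen is scarce. It then raises transcription of most glycolytic enzymes and of genes for vessel growth, removal of mitochondria and collagen folding. The rumen wall carries a stratified epithelium beside a lumen with very little oxygen, and that epithelium takes up and oxidises the short-chain fatty acids, butyrate above all, that microbes make from feed.

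Values are log2 signals relative to the 75th percentile of the same array, so 0 is the signal that 75% of that array's probes stay under. A level of one probe says nothing about the level of another. The arrays were alike in quality, with a median signal of 182 to 241, 81.5 to 84.6% of spots well above background and 10 to 20 saturated spots. No member was saturated on any array. All 7 arrays lay on 1 slide in 1 scan, with the HAY arrays in slide row 1 and the CON arrays in row 2, so the row on the slide and the feed cannot be told apart. Of 14 stratified epithelium markers, 13 were well above background on all arrays. The median difference between groups over the 14 was 0.04, with a range from -2.32 to 0.78. The lowest was KRT4, well above background on all 4 CON arrays and on no HAY array (unadjusted p = 0.000321, limma adjusted p = 0.163). The summed level of these markers, in units of the 75th percentile, ran from 468 to 554 in HAY and from 378 to 558 in CON. Such a sum is weighted to the brightest probes, here most to KRT6A, which was saturated on 1 array. Markers of cells beneath the epithelium had lower values in HAY: all 8 of smooth muscle (median difference -1.29), all 10 of fibroblasts and matrix (-1.55), all 10 of endothelium (-0.76) and 8 of 9 of macrophages and dendritic cells (-1.16). The median was 0.20 over 6 nerve and glia markers and 0.18 over 4 red blood cell markers. In bulk tissue, fewer cells of a type and less RNA per cell cannot be told apart.

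No member passed an adjusted p of 0.05 between HAY and CON after adjustment over all 12604 probes tested with limma, where the lowest adjusted p of a member was 0.255. Across the whole array 1 probe passed an adjusted p of 0.05, which is 0.00793%. At an unadjusted p under 0.05, 1756 probes differed (13.9%), of which 854 were higher in HAY (6.78%) and 902 lower (7.16%). Centring each array on its median instead moved that split to 1239 higher and 774 lower. Among the 27 genes tested, with the brightest GAPDH probe standing for GAPDH, 2 reached that unadjusted level, or 7.41%. These were PFKP, lower in HAY, and BNIP3L, higher in HAY. HAY and CON did not overlap in 3 of the 27 genes (11.1%), against 11.8% of all probes. HAY lay below CON for PFKP and LDHA (5.29% of all probes) and above it for BNIP3L (6.53%). No member differed by 2-fold, as 6.62% of all probes did.

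The glycolytic enzymes had a median difference, HAY minus CON, of 0.01 over 15 genes tested, beside 0.03 over all probes. Of the 15, 8 had higher and 7 lower means in HAY, beside 54.5% and 45.5% of all probes, with differences from -0.87 to 0.43. The hypoxia response genes had a median of 0.11 over 12 genes, with 7 higher and 5 lower and a range from -0.61 to 0.93. The median half-width of the 95% interval of a difference was 0.56 for the enzymes and 0.59 for the hypoxia genes. That interval stayed within 2-fold in either direction for 11 of the 15 enzymes and 8 of the 12 hypoxia genes, so for the other members a 2-fold difference lay within the error.

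**Figure D1:**
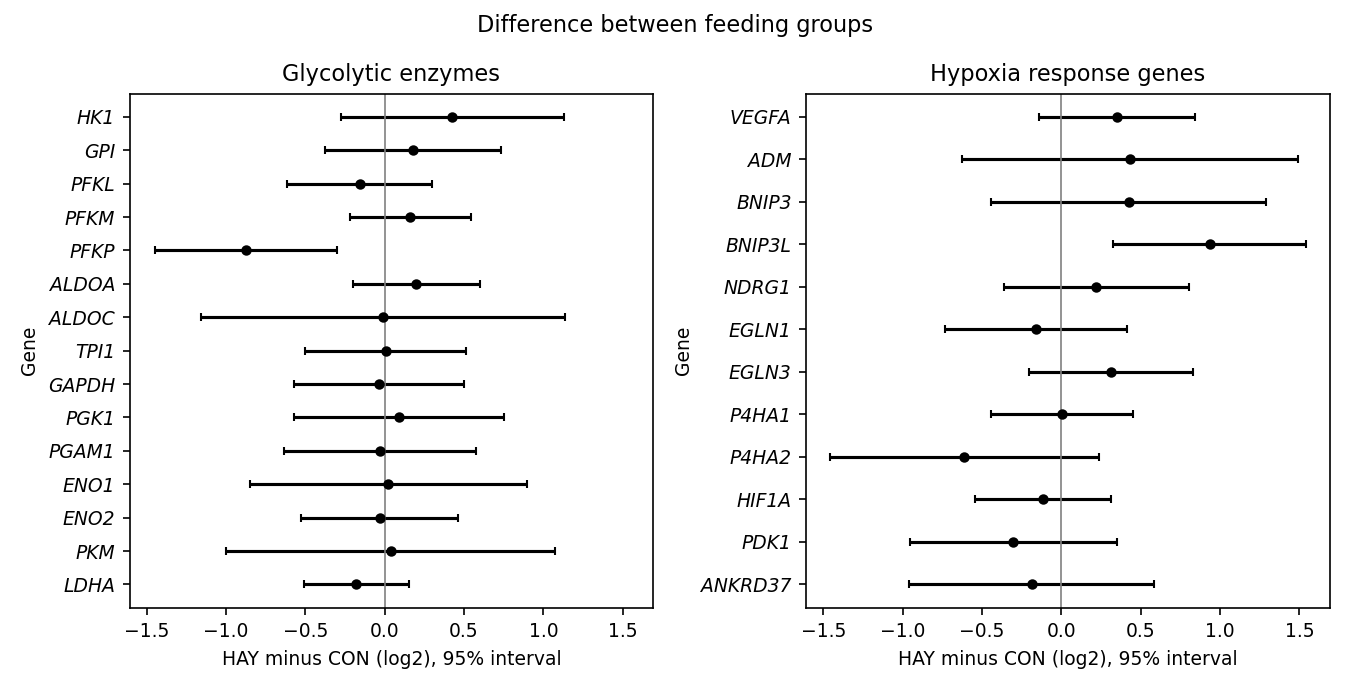
Difference HAY minus CON in log2 units for each gene tested (left, 15 glycolytic enzymes; right, 12 hypoxia response genes); points are limma estimates and bars 95% intervals, unadjusted. The interval lies apart from 0 only for PFKP, at -0.87, and BNIP3L, at 0.93.

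Among the enzymes of the preparatory steps of glycolysis, PFKP stood apart from its relatives in the size of its difference, although the differences among the phosphofructokinases were not tested against each other. PFKP encodes the platelet-type subunit of phosphofructokinase, the enzyme of the committed step. Its probe lies at chr13:45503527-45503586 on the minus strand of UMD_3.1, the build of the array files, and its exons were not analysed here. The probe sequence is shown because it is the one glycolytic probe whose 95% interval lay apart from 0.
PFKP: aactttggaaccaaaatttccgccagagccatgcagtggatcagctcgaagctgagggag

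The PFKP signal was -1.97, -2.24 and -2.84 in HAY calves 9, 10 and 13. It was -1.08, -1.66, -1.63 and -1.53 in CON calves 8, 11, 12 and 14. All 3 HAY calves lay under all 4 CON calves. The mean was 1.83-fold lower in HAY, a difference of -0.87 (SE 0.25, n = 3 and 4, unadjusted p = 0.00808, limma adjusted p = 0.255). The summed level of smooth muscle markers was 11.7 to 26.8 in HAY and 28.5 to 63.9 in CON, and that of fibroblast and matrix markers 16.2 to 73.3 and 49.3 to 237. CON calf 8, highest for PFKP, also had the highest sum for both lists. In HAY both sums fell with PFKP from calf 9 to calf 10 to calf 13. In the remaining CON calves the order was the reverse. PFKP rose from calf 11 to calf 12 to calf 14. Over the same calves the smooth muscle sum fell from 39.3 to 28.5 and the fibroblast and matrix sum from 91.8 to 49.3. The part of these cells in the PFKP difference was not tested.

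PFKL, the liver-type subunit, measured 2.86, 2.93 and 3.11 in HAY and 3.28, 2.76, 2.98 and 3.48 in CON, calves in the same order. The groups overlapped, with a difference of -0.16 (SE 0.20, limma adjusted p = 0.767). PFKM, the muscle-type subunit, ranged from -5.31 to -4.95 in HAY and from -5.46 to -5.05 in CON, a difference of 0.16 whose direction turned to -0.04 under another background correction (normexp).

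HK1, the hexokinase that traps glucose in the cell, had the largest positive difference of the enzymes. It measured 4.90, 5.29 and 5.44 in HAY calves 9, 10 and 13, against 4.33, 4.89, 4.41 and 5.50 in CON calves 8, 11, 12 and 14. The groups overlapped through CON calf 14, the highest of all. The difference of 0.43 (SE 0.30) had a limma adjusted p of 0.558. Without CON calf 14 it was 0.66, with an unadjusted p of 0.0211 and a limma adjusted p of 0.242. In that fit 16.5% of all probes had an unadjusted p under 0.05, in place of 13.9%.

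GPI, which isomerises glucose phosphate to fructose phosphate, differed by 0.18 (SE 0.24). ALDOA and ALDOC, aldolases that split the sugar into 3-carbon units, differed by 0.20 (SE 0.17) and -0.01 (SE 0.49). TPI1, which interconverts these units, differed by 0.01 (SE 0.22). All 4 had overlapping groups. ALDOC varied most within groups, from -1.02 to 0.53 in HAY and from -0.75 to 0.84 in CON.

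The enzymes of the energy-yielding steps had means that were close between HAY and CON and calves that were far apart. The difference was 0.09 (SE 0.28) for PGK1, which makes ATP, -0.03 (SE 0.26) for PGAM1, which moves the phosphate group, and 0.02 (SE 0.37) for ENO1, an enolase. ENO2, the enolase known from neurons, was dim on this array and differed by -0.03 (SE 0.21). PKM, the kinase of the last ATP-yielding step, was read by a dim probe designed on a transcript that matched no RefSeq name, and differed by 0.04 (SE 0.44). The limma adjusted p of these 5 genes was at least 0.917.

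ENO1 shows the spread most plainly. It measured 6.02, 5.77 and 6.32 in HAY calves 9, 10 and 13, against 5.69, 5.39, 5.96 and 7.02 in CON calves 8, 11, 12 and 14. The highest and the lowest of the 7 values were both in CON, 3.09-fold apart. PGK1 had the same layout, with 2.68, 2.80 and 3.04 in HAY and 2.38, 2.39, 2.72 and 3.50 in CON. PGAM1 did too, with 4.82, 5.02 and 5.14 against 4.62, 4.91, 4.86 and 5.70.

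LDHA, the lactate dehydrogenase subunit that favours lactate formation, measured 6.09, 5.99 and 6.02 in HAY and 6.09, 6.10, 6.19 and 6.47 in CON. The groups did not overlap, but HAY calf 9 and CON calf 8 were equal to the second decimal. The difference was -0.18 (SE 0.14, unadjusted p = 0.246, limma adjusted p = 0.610). LDHB, the subunit that favours the reverse reaction, was not well above background on any array, and its probe, also without a RefSeq name match, gives no fold.

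**Figure D2:**
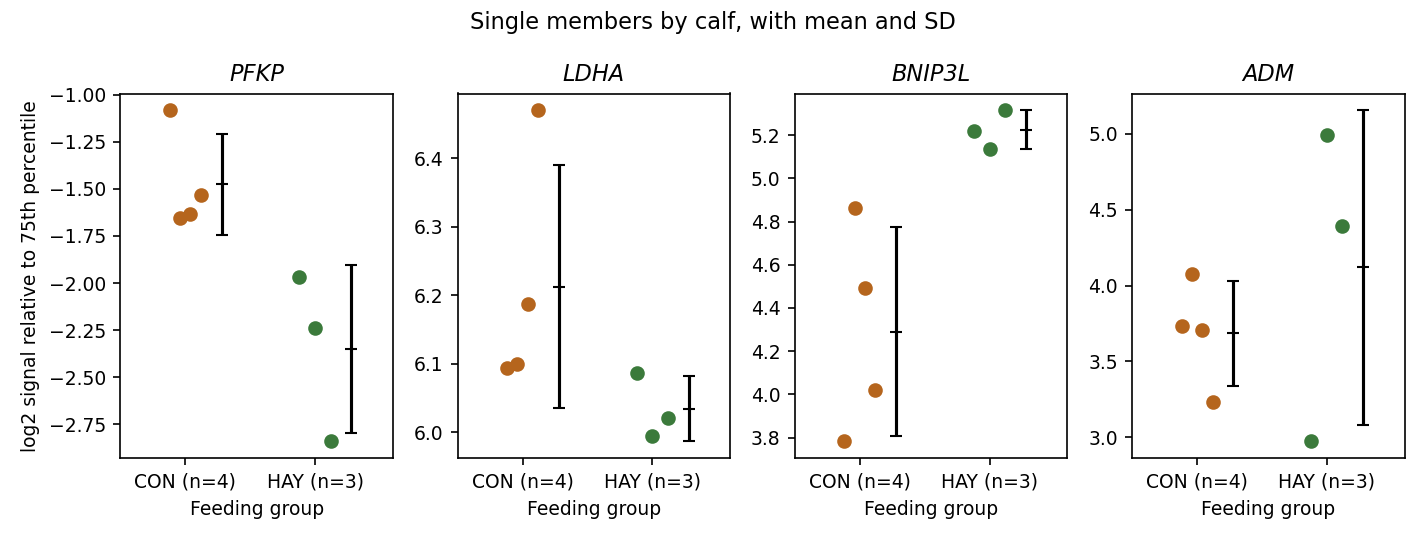
Log2 signal relative to the 75th percentile of the array for PFKP, LDHA, BNIP3L and ADM in each calf (points, CON n = 4, HAY n = 3), with group mean and SD (bars); each panel has its own scale, which does not start at 0. HAY and CON do not overlap for PFKP, LDHA and BNIP3L, and the 3 HAY calves for ADM lie from 2.97 to 4.99.

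GAPDH, which oxidises the sugar and forms NADH, was read by 8 probes of 5 or 6 spots each, all on the minus strand of chromosome 5 between 104237706 and 104239754. Their differences ran from -0.10 to 0.24, with 4 higher and 4 lower, and the lowest limma adjusted p was 0.822. The 8 probes share a transcript name and are not replicates of the condition. Most overlap another probe yet differ from it in letters, so the sequences are printed to show what each can read. In the lines that follow, capitals mark bases at which a probe differs from another printed probe that overlaps it.
A_73_P082516: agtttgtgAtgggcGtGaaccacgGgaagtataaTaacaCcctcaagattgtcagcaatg
A_73_P195967: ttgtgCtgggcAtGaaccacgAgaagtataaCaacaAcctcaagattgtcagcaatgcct
A_73_P108926: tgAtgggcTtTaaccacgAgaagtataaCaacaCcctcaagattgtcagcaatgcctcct
A_73_P089951: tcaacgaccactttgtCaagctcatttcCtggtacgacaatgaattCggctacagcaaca
A_73_P060776: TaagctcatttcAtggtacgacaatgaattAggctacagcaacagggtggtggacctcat
A_73_P099681: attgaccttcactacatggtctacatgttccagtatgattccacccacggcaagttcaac

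The first 3 lie at chr5:104239012-104239162, chr5:104239009-104239160 and chr5:104239006-104239157. The other 3 lie at chr5:104237943-104238104, chr5:104237927-104238087 and chr5:104239604-104239754. Each is 60 bases long but spans 151 to 162 bases of the genome, so each crosses a gap in its alignment to UMD_3.1. A_73_P108926 differs from A_73_P082516 at 4 of 54 shared bases and from A_73_P195967 at 4 of 57. A_73_P195967 and A_73_P082516 differ at 5 of 57, and A_73_P089951 and A_73_P060776 at 3 of 44. GAPDH has many processed copies in mammalian genomes, and which transcript each variant probe reads is not settled by the files.

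The differences of the variant probes between HAY and CON were small against their errors. A_73_P082516, A_73_P195967 and A_73_P108926 differed by 0.14 (SE 0.36), 0.19 (SE 0.37) and 0.13 (SE 0.36). A_73_P089951 and A_73_P060776 differed by -0.10 (SE 0.32) and -0.08 (SE 0.35). A_73_P099681, the most 5′ probe, differed by 0.24 (SE 0.38), and the brightest probe, which is also the most 3′, by -0.04 (SE 0.23). None of these differences exceeded its own error.

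CON calf 14 was the highest and HAY calf 13 the next on both the most 5′ and the most 3′ probe, but the calves lay further apart on the 5′ probe. The 5′ minus 3′ log2 signal, relative to its mean over the 7 arrays, was -0.23, 0.14 and 0.56 in HAY calves 9, 10 and 13. It was -0.42, -0.09, -0.25 and 0.28 in CON calves 8, 11, 12 and 14. For this pair of probes, HAY calf 13 and CON calf 14 had the relatively strongest 5′ signal. The range over the 7 calves was 1.46 on the most 5′ probe and 0.93 on the most 3′ probe. It was 1.52 on A_73_P060776, which starts only 221 bases upstream of the most 3′ probe. The most 3′ probe is also the brightest, so position and brightness cannot be told apart in this pair. On all 8 probes CON calf 14 exceeded the mean of the other CON calves, by 0.75 to 1.28.

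**Figure D3:**
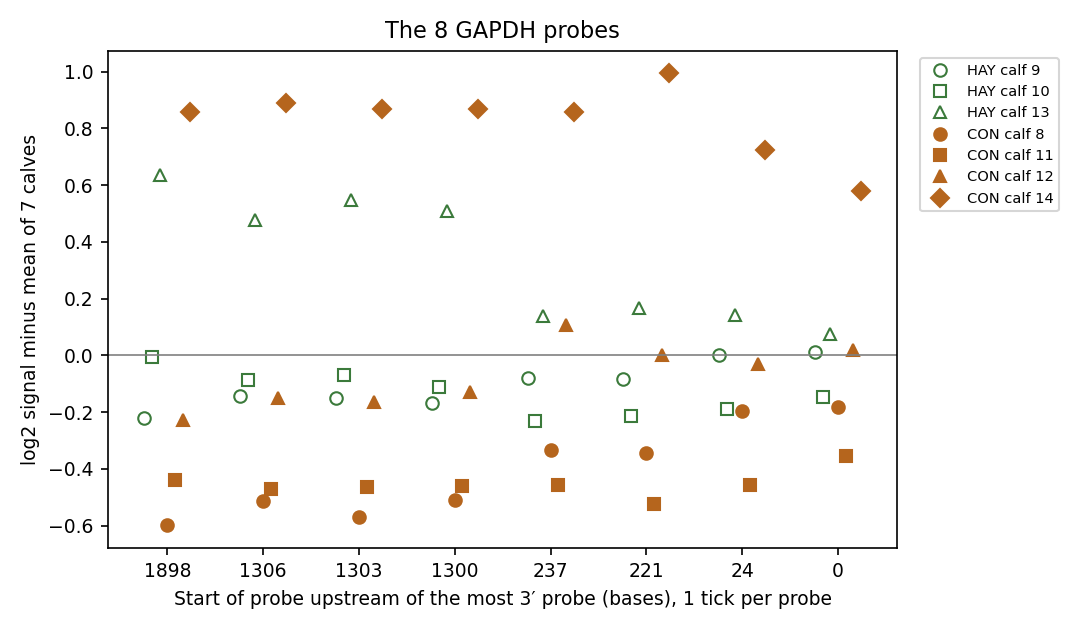
Log2 signal of the 8 GAPDH probes in each calf, relative to the mean of the 7 calves for that probe, ordered from the most 5′ probe (left) to the most 3′ (right); the ticks give the distance in bases and are evenly spaced, not to scale. CON calf 14 is the highest on every probe, and HAY calf 13 is closest to it on the 4 probes that start 1300 bases or more upstream.

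CON calf 14 was the highest of the 7 calves for 11 of the 15 glycolytic enzymes, or 73.3%, whereas it was highest for 16.4% of all probes tested. The exceptions were PFKM, PFKP, ALDOA and ENO2. It lay above every other CON calf for 12 of 15 enzymes, or 80%, against 29.5% of all probes. Its excess over the mean of the other CON calves had a median of 0.68 over the enzymes and -0.03 over all probes, the latter near 0 because each array is scaled to its own 75th percentile. The excess was largest for ENO1, at 1.34, followed by PKM at 1.25 and ALDOC at 1.21.

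CON calf 8 was the lowest for 8 of the 15 enzymes, or 53.3%, against 22.2% of all probes, and CON calf 11 for 4. The HAY calves mostly lay between these. The mean deviation over the 15 enzymes was -0.11, -0.07 and 0.15 in HAY calves 9, 10 and 13, against -0.17, -0.24, -0.07 and 0.49 in CON calves 8, 11, 12 and 14. The largest spread of the enzymes was thus within CON. This pattern was noticed in these data and is given as a description with no test.

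CON calf 14 had the highest summed level of stratified epithelium markers, 558, and CON calf 8 the lowest, 378. HAY calves 13 and 10 came near the highest, at 554 and 548, with mean enzyme deviations of 0.15 and -0.07. CON calf 8 also had the highest sums for smooth muscle, 63.9, and for fibroblasts and matrix, 237, whereas CON calf 14 had the lowest of the CON calves for both, 28.5 and 49.3. The part of this makeup in the enzyme levels was not tested. Without CON calf 14 the median difference of the 15 enzymes was 0.20 in place of 0.01.

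**Figure D4:**
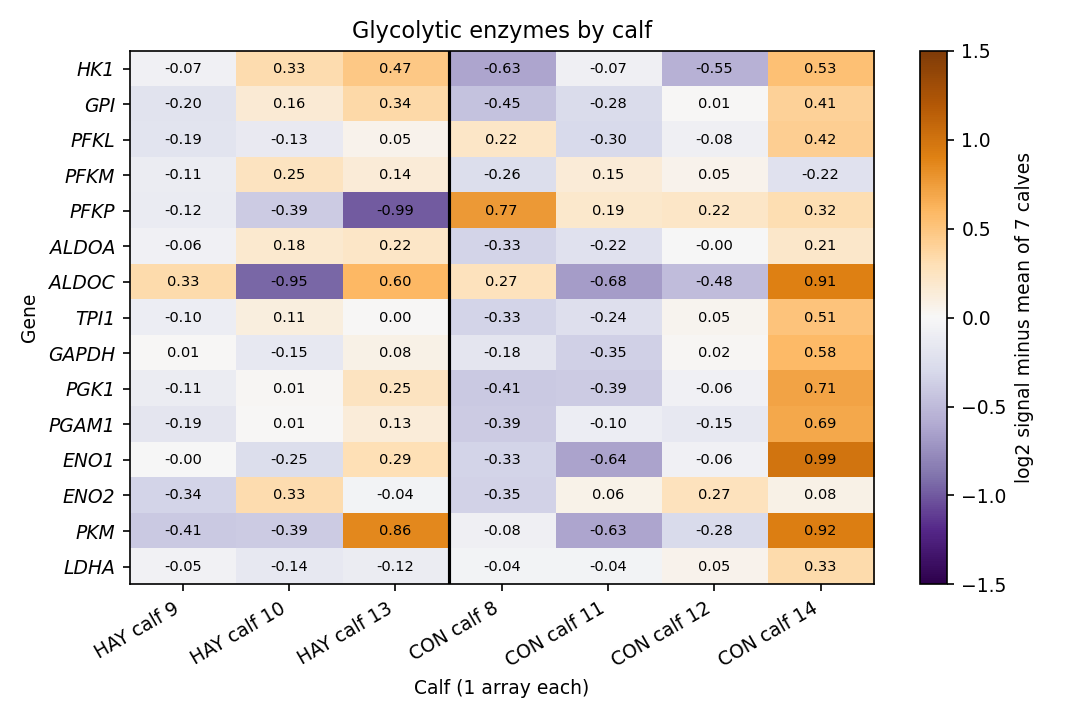
Log2 signal of the 15 glycolytic enzymes (rows) in each calf (columns), relative to the mean of the 7 calves for that gene, with GAPDH as its brightest probe; colour and printed value give the same quantity. The CON calf 14 column is above the mean for every gene but PFKM, while CON calf 8 is lowest for 8.

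Among the hypoxia response genes, BNIP3L had the largest difference. It encodes a receptor on the outer mitochondrial membrane that marks mitochondria for removal by autophagy, known from the maturation of red blood cells. Its probe lies at chr8:74947355-74947414 on the plus strand of UMD_3.1. The signal was 5.22, 5.14 and 5.32 in HAY calves 9, 10 and 13. It was 3.78, 4.86, 4.49 and 4.02 in CON calves 8, 11, 12 and 14. All 3 HAY calves lay above all 4 CON calves, and the HAY values were close together.

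The BNIP3L mean was 1.91-fold higher in HAY, a difference of 0.93 (SE 0.26, n = 3 and 4, unadjusted p = 0.00787, limma adjusted p = 0.255). Of 7 red blood cell markers on the array, 4 were tested and 2 were not well above background on any array. Their summed level was 3.98 to 6.02 in HAY and 2.85 to 4.61 in CON, and their part in the BNIP3L difference was not tested. BNIP3, the related mitochondrial receptor and a classical HIF target, was read by a probe without a RefSeq name match. It measured -1.90, -0.86 and -2.07 in HAY and -2.36, -1.61, -2.58 and -1.60 in CON. Its groups overlapped, with a difference of 0.43 (SE 0.37, limma adjusted p = 0.647).

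The secreted factors VEGFA and ADM had higher means in HAY within a wide spread. VEGFA, the main growth factor of blood vessels, measured 0.67, 1.34 and 0.98 in HAY and 0.28, 0.80, 0.74 and 0.76 in CON. The difference was 0.35 (SE 0.21, limma adjusted p = 0.488), and HAY calf 9 lay among the CON calves. ADM, the precursor of the vasodilator peptide adrenomedullin, measured 2.97, 4.99 and 4.40 in HAY and 3.73, 4.08, 3.71 and 3.23 in CON. HAY calf 9 was the lowest of all 7 calves and HAY calf 10 the highest.

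The ADM difference of 0.43 (SE 0.45) had a limma adjusted p of 0.711 and rested on single HAY calves. Without HAY calf 9 it was 1.01, with an unadjusted p of 0.0102 and a limma adjusted p of 0.149. Without HAY calf 10 it was -0.00, that is, the means were equal to the second decimal. VEGFA also passed the unadjusted level without HAY calf 9, which made 3 hypoxia genes, with BNIP3L, in place of 1. In that fit 18.6% of all probes passed it, in place of 13.9%. EGLN3 passed it without CON calf 11, which made 2 hypoxia genes, with 12.8% of all probes passing in that fit.

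For the oxygen sensors and the factor they control, the 95% interval of each difference included 0. HIF1A, the oxygen-regulated alpha subunit, measured 0.78, 0.90 and 1.13 in HAY and 0.87, 0.86, 1.05 and 1.43 in CON. Its difference was -0.11 (SE 0.18, 95% interval -0.54 to 0.31), and its control is known to act mainly on protein stability, which arrays do not read. EGLN1 and EGLN3 are prolyl hydroxylases that mark the alpha subunit for destruction. EGLN1 differed by -0.16 (SE 0.25) and EGLN3 by 0.31 (SE 0.22), with limma adjusted p-values of 0.817 and 0.556.

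The remaining targets differed in both directions. P4HA1 and P4HA2 are the alpha subunits of collagen prolyl hydroxylase. P4HA2 measured 0.76, -0.25 and 0.53 in HAY and 1.71, 0.52, 0.51 and 1.08 in CON, a difference of -0.61 (SE 0.36, limma adjusted p = 0.484). CON calf 8, with the highest fibroblast and matrix sum, was the highest for P4HA2. CON calf 14, with the lowest such sum of the CON calves, was the next highest. The part of these cells in the P4HA2 difference was not tested. The P4HA1 means were 0.72 and 0.71, with an SE of 0.19 for the difference.

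PDK1, a kinase that keeps pyruvate out of the mitochondrial citrate cycle, differed by -0.30 (SE 0.28). NDRG1, a stress-induced gene of epithelia, differed by 0.22 (SE 0.25), and ANKRD37, a HIF target, by -0.19 (SE 0.33). All 3 had overlapping groups and limma adjusted p-values of at least 0.671.

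Calf by calf, the hypoxia genes did not follow the glycolytic enzymes. HAY calf 10 was the highest for 5 of the 12 genes, 41.7%, against 18.1% of all probes. The mean deviation over the 12 was -0.06, 0.32 and -0.06 in HAY calves 9, 10 and 13, against -0.14, 0.15, -0.05 and -0.16 in CON calves 8, 11, 12 and 14. CON calf 14, highest for most enzymes, had the lowest mean deviation here, and its median excess over the other CON calves was -0.35. Leaving out HAY calf 10 turned the median difference of the 12 genes from 0.11 to -0.02.

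**Figure D5:**
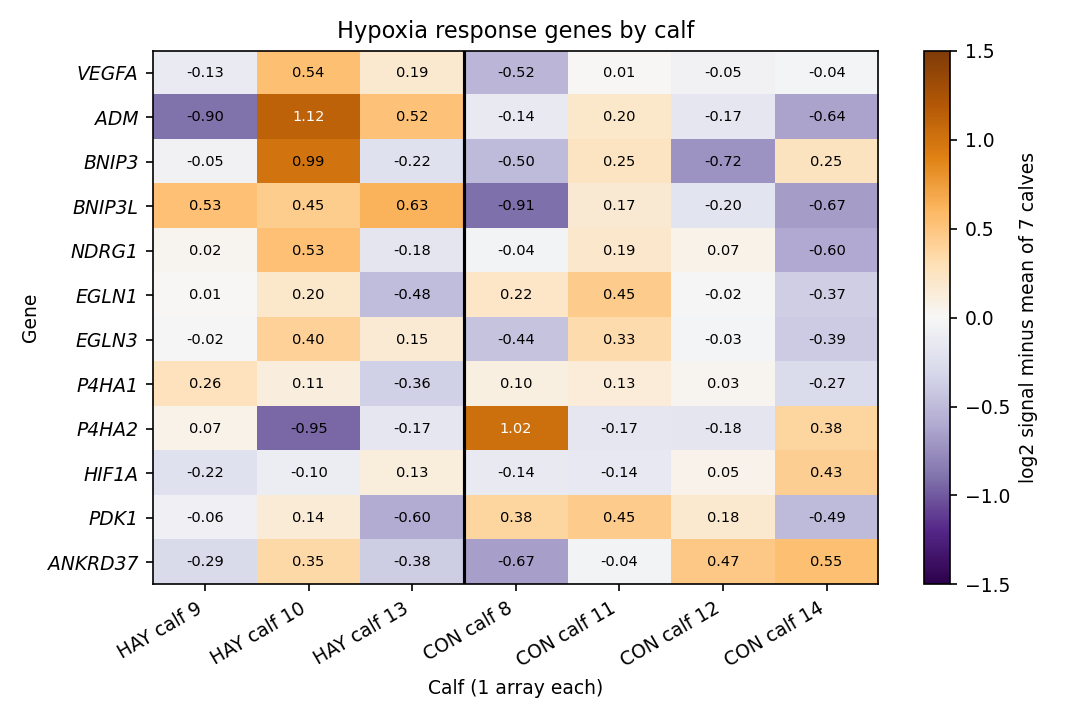
Log2 signal of the 12 hypoxia response genes (rows) in each calf (columns), relative to the mean of the 7 calves for that gene; colour and printed value give the same quantity. HAY calf 10 is highest for 5 genes, and the HAY columns are all above the mean only for BNIP3L.

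Genes around these pathways likewise gave no adjusted p under 0.05. Of 35 further HIF targets tested, 3 were higher and 5 lower in HAY at an unadjusted p under 0.05, with a median of -0.05. That is 22.9%, beside 13.9% of all probes. PFKFB3, lower at that level, is counted again among the further glycolysis enzymes. PFKFB4 and GYS1 also stand in another list, without reaching that level. SLC16A3, the exporter of lactate, had the smallest p of the members and the genes named around them, with -4.04 to -3.99 in HAY and -3.34 to -2.99 in CON. That is a difference of -0.82 (SE 0.13, unadjusted p = 0.000364, limma adjusted p = 0.165). CA12, a carbonic anhydrase of the cell surface, ran from 0.93 to 1.41 in HAY and from 0.06 to 0.55 in CON, a difference of 0.90 (SE 0.18, limma adjusted p = 0.182). HAY and CON did not overlap for either gene.

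ENG, a receptor subunit of endothelium, differed by -0.73 (SE 0.21), with a limma adjusted p of 0.256. Endothelium markers, of which ENG is one, summed to 1.51 to 4.62 in HAY and 3.37 to 5.84 in CON, and the part of endothelium in the ENG value was not tested. Of 11 receptors and relatives of VEGFA and adrenomedullin, 1 was lower and none higher at the unadjusted level, with a median of -0.54. That is 9.09%, beside 13.9% of all probes. KDR and FLT1 of this list are also among the endothelium markers, and the part of endothelium in these values was not tested. NRP2, a coreceptor, differed by -0.57 (SE 0.20), and its relative NRP1 by -0.72 (SE 0.41). VEGFC, a growth factor of lymph vessels, differed by -0.84 (SE 0.38), and RAMP1, a partner of peptide receptors, by -0.94 (SE 0.48). Slide column 1 held CON calf 8 alone, so with slide column as a block that calf adds nothing to a difference. In that fit NRP2 no longer reached the unadjusted level (unadjusted p = 0.0790, limma adjusted p = 0.412). NRP1 reached it instead (unadjusted p = 0.0216, limma adjusted p = 0.270), as did RAMP1 (unadjusted p = 0.0383, limma adjusted p = 0.321).

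Of 22 further enzymes of glycolysis and gluconeogenesis, 1 was higher and 3 were lower at the unadjusted level (18.2%, beside 13.9% of all probes), with a median of 0.08. ADPGK, a glucokinase that uses ADP, differed by -0.51 (SE 0.17), and HK3, a hexokinase of myeloid cells, by -0.83 (SE 0.29). Macrophage and dendritic cell markers summed to 7.50 to 7.90 in HAY and to 11.4 or more in CON, and their part in the HK3 value was not tested. PFKFB3, which makes an activator of phosphofructokinase, differed by -0.79 (SE 0.28). LDHD, which oxidises D-lactate, was the higher one, but only 1 of the 4 CON arrays had it well above background. Its difference of 1.25 (SE 0.41, unadjusted p = 0.0177) shrank to 0.18 with an unadjusted p of 0.194 under normexp background correction.

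Glycogen enzymes had 2 of 10 lower and none higher (20%, beside 13.9% of all probes), with a median of 0.09. GBE1, the branching enzyme, differed by -0.99 (SE 0.30) and GYG1, the primer protein, by -0.43 (SE 0.16), with HAY under CON in every calf for both. With slide column as a block, the unadjusted limma p of GYG1 was 0.0870. GYG2, the relative of GYG1, differed by 0.27 (SE 0.18). The 10 genes of pyruvate entry into mitochondria had 1 higher (10%) and none lower, with a median of 0.06. That gene was BRP44L, a subunit of the mitochondrial pyruvate carrier, at 0.57 (SE 0.19). PDK4, a relative of PDK1, differed by -0.60 (SE 0.32), with an unadjusted limma p of 0.102 that became 0.0442 with slide column as a block. DLD, a dehydrogenase subunit, differed by 0.18 (SE 0.16) and PC, pyruvate carboxylase, by -0.33 (SE 0.29).

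Of 8 pentose phosphate genes none reached the unadjusted level, with a median of 0.25. RPIA, an isomerase, differed by 0.37 (SE 0.17). TALDO1 and TKT, which shuffle sugars back to glycolysis, differed by 0.38 (SE 0.27) and 0.27 (SE 0.29). Of 17 oxygen sensing genes and HIF subunits, 1 was lower and none higher (5.88%, beside 13.9% of all probes), with a median of 0.10. That gene was EPAS1, an alpha subunit related to HIF1A, at -0.35 (SE 0.12). TCEB1, a part of the ligase that destroys alpha subunits, differed by -0.24 (SE 0.14), ARNT, their partner, by 0.35 (SE 0.20) and SIAH2, a ligase for the hydroxylases, by 0.47 (SE 0.27). The limma adjusted p-values of all these surrounding genes were 0.165 or higher.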

How the data were processed

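Per the labels' protocols, 500 ng of total RNA per calf was labelled with cyanine 3. The deposited scanner files give spot intensity on a linear scale, background-subtracted by Agilent Feature Extraction 9.5, per the submitters' processing notes. The authors' deposited log2 table equalled log2 of that signal minus the 75th percentile of the array (r at least 0.99999984), so its scale, centring and direction were settled; the medians of its columns were, for HAY calves 9, 10 and 13, -3.12, -3.14 and -3.20, and, for CON calves 8, 11, 12 and 14, -3.09, -3.09, -3.08 and -3.11.

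The processed signals were scaled the same way here, control spots and outlier spots were left out, and spots of a probe were averaged as log2 values. Of 15008 probes, the 12604 that 3 or more of the 7 arrays had well above background were kept. They were compared with limma 3.58.1 (lmFit, eBayes) in R 4.3.3, each probe on its own, with Benjamini-Hochberg adjustment over all of them. The script was tested on simulated data. Unadjusted p-values under 0.05 are given as a description. A list is described by counts and its median, with no test. Every member was named, and from each surrounding gene list up to 4 genes with the smallest p, some of which are not reported here. Members and lists were chosen with earlier results of these data known. Each calf counts as 1 replicate, and the number of arrays limits the precision. RefSeq names came from assembly ARS-UCD2.0, coordinates and sequences from the array files. The summed level of a marker list adds its genes' linear signals relative to the 75th percentile.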

Additional observations from a re-analysis of the deposited data

Results flagged for a closer look

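In CON, the group of 4 calves in which such a check applies, 1 calf lay far from the other 3, relative to the group's range, for 2 of 64 values checked. Chance alone marks about 5% of groups in this way. The VEGFA signal of CON calf 8 was 0.28, below the other CON calves. The PDK4 signal of CON calf 14 was -6.17, also below the others.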

How the results depend on the processing

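PFKP and BNIP3L kept their direction and an unadjusted p under 0.05 in 15 of 15 alternatives each, with differences from -1.06 to -0.63 and from 0.77 to 1.13, and with limma adjusted p-values from 0.130 to 0.601 and from 0.194 to 0.601. Several alternatives could hardly differ from the main fit or from each other. Other filters on dim probes and 1 probe per gene name returned the main differences, -0.87 and 0.93. The authors' deposited table, nearly the same signal, gave -0.87 and 0.94. Slide column as a block gave the same differences as leaving out CON calf 8, -0.74 and 0.77. Of 922 values of single genes under alternatives, such repeats included, 1 reversed: PFKM, at 0.16, was -0.042 with normexp background correction. Another 58 changed sign by less than 1 SD. The median difference of the glycolytic enzymes was -0.08 both with slide column as a block and without CON calf 8, the only array in its column. It was 0.20 without CON calf 14. Over all probes, 4 passed an adjusted p of 0.05 with quantile normalization and 2 with slide column as a block. Leaving out 1 calf at a time gave 1 to 21 such probes, with 21 when CON calf 14 was left out, 7 for HAY calf 9, 4 for CON calf 8 and 2 for HAY calf 13. It gave 983 to 2343 probes at an unadjusted p under 0.05, the fewest for HAY calf 13 and 989 for HAY calf 10. It gave 1 to 3 hypoxia genes and 0 to 1 glycolytic enzymes higher at that level, the latter HK1 without CON calf 14. The cause was not tested, beyond the smaller number of calves. No paired analysis was run, because the labels state no pairing of HAY calves with CON calves. Slide column is a position that links arrays, not calves. Dim probes limit PKM, PFKM, ENO2 and LDHB.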
